A study of Homo sapiens with 6 samples.

Results

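The cancer-testis antigen families of K562 cells were described as 119 protein-coding genes whose names begin with MAGEA, MAGEB, MAGEC, MAGED, GAGE, PAGE, XAGE, SSX and a digit, CT45, CT47, CT83, CTAG, SPANX or PRAME, out of 60131 genes in the deposited RPKM table. Of these, 89 lay on chromosome X, and 115 also had a row among the 28395 genes of the deposited normalized count table. The name rule also took in SSX2IP and 6 CTAGE genes, which share a prefix with SSX and CTAG without belonging to those families, so 112 genes were family members. RNA was sequenced in 6 libraries of K562, a human line from a chronic myeloid leukaemia in blast crisis that grows in suspension with erythroid features. Of these, 3 libraries were of cells labelled WT, with wild-type RUNX1, and 3 of cells labelled RUNX1 R320*, a stop codon at residue 320 of this blood transcription factor, and all cells grew in RPMI-1640 with serum. The question stated for the series was how transcription differs between these genotypes. How the R320* change was made, whether both alleles carry it, whether each genotype is 1 clone and whether the libraries are separate cultures is not stated in those labels, so the p-values measure the spread between these libraries, which may be technical.

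Cancer-testis antigens are proteins made mainly in the germ cells of the testis and silenced in most adult tissues, largely through DNA methylation of their promoters. Many tumours and leukaemia lines transcribe them again, and because the testis presents little antigen they are studied as targets for immunotherapy. MAGE proteins share a MAGE homology domain and bind RING ubiquitin ligases, the MAGED genes being an older branch with wide expression in the body; GAGE, PAGE and XAGE are small related proteins, SSX proteins are transcriptional repressors fused to SS18 in synovial sarcoma, and PRAME is an adaptor of a cullin ubiquitin ligase.

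Promoter sequences are printed for the 6 family members that differed at least 2-fold in the normalized counts and are no near-identical GAGE copies, because silencing of these families acts at the promoter. Each run is the 250 bases before the RefSeq start (GRCh38.p14), 5′ to 3′ on the gene's strand, with CG dinucleotides in capitals. MAGEB16, CT83, MAGEB1 and MAGEB2 were higher in R320*, and MAGED1 and SSX1 were lower. They lie at chrX:35798092-35798341 (plus strand, MAGEB16), chrX:116462977-116463226 (minus strand, CT83), chrX:30243481-30243730 (plus strand, MAGEB1), chrX:30215313-30215562 (plus strand, MAGEB2), chrX:51802826-51803075 (plus strand, MAGED1) and chrX:48255142-48255391 (plus strand, SSX1).
MAGEB16: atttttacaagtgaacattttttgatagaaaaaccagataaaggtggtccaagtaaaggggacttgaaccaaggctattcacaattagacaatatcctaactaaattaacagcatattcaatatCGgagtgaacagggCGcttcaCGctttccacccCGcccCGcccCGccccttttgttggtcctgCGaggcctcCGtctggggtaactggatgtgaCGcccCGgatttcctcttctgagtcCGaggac
CT83: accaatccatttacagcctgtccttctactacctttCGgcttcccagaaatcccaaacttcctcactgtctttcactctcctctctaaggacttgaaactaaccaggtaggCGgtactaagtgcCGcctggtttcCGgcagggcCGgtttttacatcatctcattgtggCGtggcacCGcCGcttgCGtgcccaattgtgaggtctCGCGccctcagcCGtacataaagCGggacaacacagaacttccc
MAGEB1: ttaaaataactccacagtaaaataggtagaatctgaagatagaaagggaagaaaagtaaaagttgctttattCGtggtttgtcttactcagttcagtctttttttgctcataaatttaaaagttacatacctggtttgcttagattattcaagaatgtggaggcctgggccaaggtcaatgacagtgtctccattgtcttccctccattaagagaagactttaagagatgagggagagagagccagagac
MAGEB2: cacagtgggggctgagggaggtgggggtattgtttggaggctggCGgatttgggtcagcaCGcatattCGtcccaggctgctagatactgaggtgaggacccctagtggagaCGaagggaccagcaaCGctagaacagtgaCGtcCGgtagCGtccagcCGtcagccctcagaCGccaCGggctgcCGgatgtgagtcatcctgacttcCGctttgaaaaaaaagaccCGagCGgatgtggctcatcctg
MAGED1: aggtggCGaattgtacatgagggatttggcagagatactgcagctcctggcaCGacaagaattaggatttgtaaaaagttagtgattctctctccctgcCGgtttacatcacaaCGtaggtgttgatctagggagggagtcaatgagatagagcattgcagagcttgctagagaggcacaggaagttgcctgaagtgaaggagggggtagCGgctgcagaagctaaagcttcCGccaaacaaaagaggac
SSX1: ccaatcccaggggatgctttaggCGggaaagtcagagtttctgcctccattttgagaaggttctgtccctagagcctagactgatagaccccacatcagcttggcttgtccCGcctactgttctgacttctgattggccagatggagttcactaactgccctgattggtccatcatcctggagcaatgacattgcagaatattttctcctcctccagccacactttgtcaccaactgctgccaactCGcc
These promoters held 11 CG dinucleotides in MAGEB16, 13 in CT83, 1 in MAGEB1, 15 in MAGEB2, 6 in MAGED1 and 3 in SSX1. Beside a median of 11 CG over 27305 RefSeq promoters, MAGEB16 stood at the median, CT83 and MAGEB2 somewhat above it and MAGEB1 far below it. Both genes that fell were below the median. The median over the 93 members with a promoter in the table was 7, and many of those promoters are near copies of each other. The RUNX core motif TGTGGT was searched on both strands and was in 16 of the 93 members' promoters (17.2%), in 10.9% of all promoters and in 10.4% of the 949 on chromosome X. None of the 6 printed windows held it. The ETS core motif CCGGAA was in 6 of the 93 promoters (6.45%), against 14.8% of all promoters and 12.5% of those on chromosome X. CT83 was the 1 printed promoter with a match, and the promoters of MAGEA3, MAGEA6 and PRAME also had one.

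Depth was similar across libraries, with 29058471 to 31306435 reads assigned to genes, and 1 read stood for 0.953 to 1.05 normalized counts. RUNX1 itself, the altered gene, rose from 22.7 ± 1.78 to 52.5 ± 1.86 RPKM (SD, n = 3 each), and a gene-level value cannot show the stop codon. The 9 K562 markers were present and tested, 6 called higher and 3 lower in R320*, beside 53.7% of all genes called (26.4% higher and 27.4% lower). None of these markers was called at 2-fold or more. Among them GATA1, the erythroid master regulator, stood at 8964 normalized counts in WT and 6124 in R320*, and TFRC, the transferrin receptor, at 25490 and 38529. Of 6 germ cell markers, 5 (DDX4, DAZL, TNP1, PRM1 and PRM2) had no read in any library. Their summed level of 26.3 to 51.3 normalized counts in WT and 20.01 to 35.7 in R320* came from SYCP3 alone. Lymphocyte markers summed to 2022 to 2041 in WT and to 612 to 690 in R320*, mostly PTPRC and CD3D, with MS4A1 at no read in WT. Fibroblast markers summed to 3424 to 3516 and 2693 to 2920, mostly COL1A2, and melanoma markers to 78.5 to 136 and 51.0 to 100.1, with TYR at no read. The part of the lymphocyte, fibroblast and melanoma markers in the results was not tested.

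Most of the antigens were silent in both genotypes. In the normalized counts, 64 of 115 members had no read in any library, 33 had reads but too few to be tested, and 18 reached 10 normalized counts in 3 or more libraries and were tested. A count of 0 allows up to 3 reads in a library, or 3.14 normalized counts at the largest WT factor, for counting error only. Of those 18, limma on log2(normalized count + 1) with Benjamini-Hochberg adjustment over all genes called 7 higher and 4 lower in R320* at an adjusted p below 0.05. That is 61.1% of the tested members, beside 53.7% of all 14299 genes tested (26.4% higher and 27.4% lower) and 49.4% of the 443 tested on chromosome X that are no members, so the share called is near the background. At a difference of at least 2-fold, 7 of the 18 were called, 4 higher and 3 lower, beside 11.4% of all genes (4.41% higher and 6.97% lower) and 12.2% of the chromosome X genes that are no members. Of these 7, all but GAGE12H were below 10 normalized counts in each library of 1 genotype. They passed the filter through the other genotype and had to differ, so these shares cannot be read as an excess among the members. The counts also say nothing about the members that were not tested. The median log2 fold change of the tested members was 0.06, beside 0.01 over all genes tested.

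In the RPKM table, 64 of 119 members were listed at 0 in all 6 libraries, 20 passed a filter of 0.5 RPKM in at least 3 libraries, and 7 were called higher and 4 lower (55.0%, beside 31.9% of all 17769 genes tested, 15.1% higher and 16.8% lower). With at least 2-fold, 9 of the 20 were called, beside 7.69% of all genes. Of these 9, all but MAGEB17 were below 0.5 RPKM in each library of 1 genotype. They passed the filter through the other genotype and had to differ, so these shares cannot be read as an excess among the members. The tables share their libraries and are no independent evidence of each other. Of 14 members tested in both, 8 were called in the same direction in both, 1 (MAGEA3) in the counts only, 5 in neither, and none in opposite directions.

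**Figure D1:**
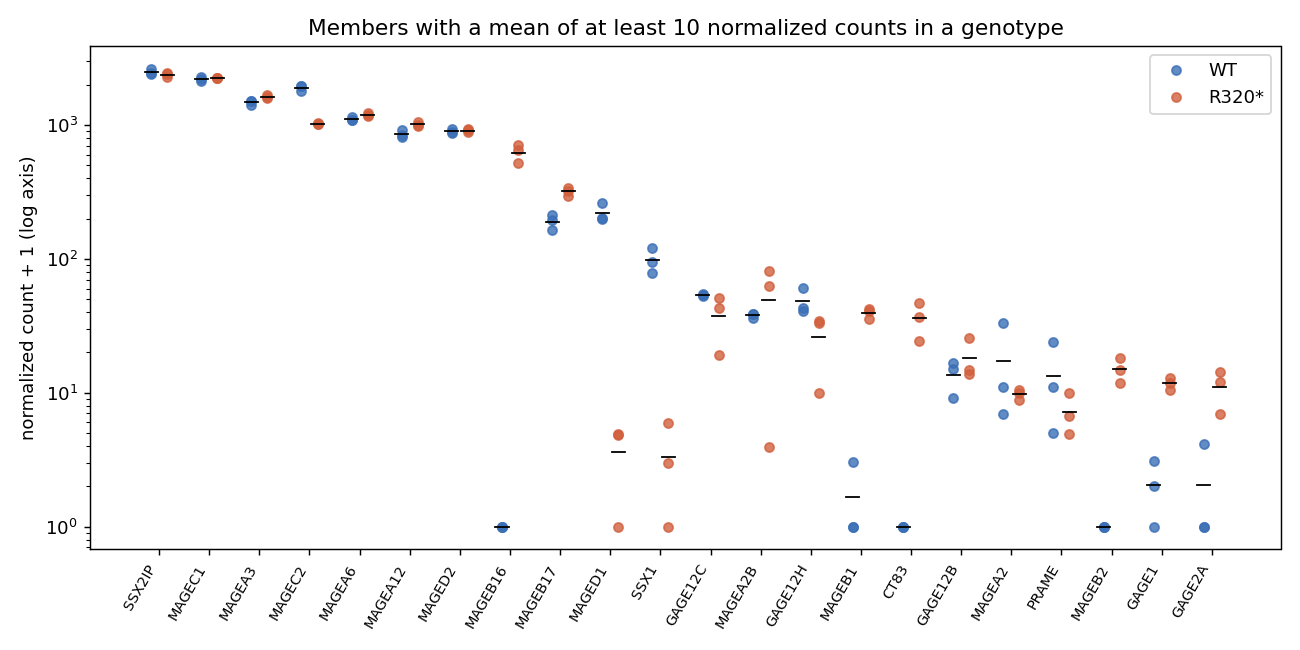
Normalized count plus 1 (log axis) of the members with a mean of at least 10 in a genotype, by library (points, 3 per genotype) with the mean of each genotype (bars). MAGEB16, MAGEB2 and CT83 sit at 0 counts in each WT library and MAGEB1 at or near 0, whereas MAGED1 and SSX1 fall to between 0 and 4.96 in R320*.

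MAGEB16 had the largest rise among the members tested in the normalized counts, and MAGEB1, MAGEB2 and MAGEB17 also rose. These genes lie on the short arm of chromosome X. Of the 11 MAGEB genes only these 4 were tested there, and MAGEB16, MAGEB1 and MAGEB2 passed the filter through the R320* libraries alone and so had to rise, which leaves no count to read against the 26.4% of all genes called higher. MAGEB16 (chrX:35798342-35803772) was without a read in WT and had 702, 644 and 517 normalized counts in the R320* libraries. No R320* library came near WT: against a floor of 3 reads in 1 library the mean of 621 ± 94.4 (SD, n = 3) was at least 198-fold higher, with a fitted log2 fold change of 9.27 ± 0.346 (SE) and an adjusted p of 1.61e-12 from limma. In RPKM it went from a listed 0 in each WT library to 15.2 ± 2.02 (SD, n = 3).

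MAGEB1 (chrX:30243731-30252040) had 0, 0 and 2.02 normalized counts in WT and 41.2, 39.7 and 34.3 in R320*, a log2 fold change of 4.76 ± 0.63 (SE, adjusted p = 7.74e-06, limma). The genotypes did not overlap, and the R320* libraries lay close together. Its span overlaps that of MAGEB4, whose own row held 1.99 normalized counts in WT replicate 2 and no read elsewhere.

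MAGEB2 (chrX:30215563-30220089), in the same cluster as MAGEB1, had no read in WT and 10.8, 13.9 and 17.2 normalized counts in R320*. Its mean of 13.9 ± 3.18 (SD, n = 3) was at least 4.44-fold higher, with an adjusted p of 0.000415 from limma. It stood at 0.273 to 0.406 RPKM in R320*, under the filter of that table.

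MAGEB17 (chrX:16167481-16171464) was the only MAGEB gene with more than a few reads in WT. It had 162, 211 and 193 normalized counts in WT and 293, 322 and 339 in R320*, a log2 fold change of 0.76 ± 0.134 (SE, adjusted p = 0.000161, limma). The genotypes did not overlap in either table, and in RPKM it rose 2.20-fold, from 1.49 ± 0.05 to 3.29 ± 0.119 (SD, n = 3 each). Its start overlaps MAGEB17-AS1, and strand use in counting is not given in the sources used here, so reads of the pair cannot be told apart. Together the MAGEB genes went from 1.62 ± 0.0918 to 19.96 ± 1.91 summed RPKM, and MAGEB16 carried most of the sum in R320*. The other 7 MAGEB genes were under the filters of both tables. Among them MAGEB6B, named after its values were seen, was listed at 0 RPKM in WT and at 0.117, 0.175 and 0.223 in R320*, and was called higher in the RPKM fit that kept each gene with a value above 0 (log2 fold change 1.42, adjusted p = 0.0154, limma).

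CT83 (chrX:116461686-116462976), also called KK-LC-1 and an antigen of lung and breast cancers, had no read in WT and 23.5, 35.7 and 45.7 normalized counts in R320*. Every R320* library was above every WT library, and the mean of 35.0 ± 11.1 (SD, n = 3) was at least 11.2-fold higher (adjusted p = 4.65e-06, limma). CT83 passed the filter through the R320* libraries alone and so had to rise. In RPKM it was listed at 0 in WT and at 1.74, 2.94 and 3.72 in R320*.

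The pattern of MAGEB16 was rare in the table as a whole. Genes with a value below 1 in each WT library and of at least 20 in each R320* library numbered 6 of 28395 (0.0211%): MAGEB16, CFAP47, SH2D4A, XIRP2, CT83 and MS4A4A, in the order of their R320* means. Of these, 3 lie on chromosome X and 2 are cancer-testis genes. The pattern was set from MAGEB16, so its own place among the 6 was fixed in advance. The reverse pattern, seen in WT only, was met by 18 genes (0.0634%), none of them a member.

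MAGED1 and SSX1 showed the largest falls. MAGED1 (chrX:51803076-51902354), an adaptor of neurotrophin receptor signalling that many adult tissues express, had 259, 196 and 202 normalized counts in WT and 3.92, 0 and 3.81 in R320*. The genotypes were far apart, with a log2 fold change of -6.25 ± 0.514 (SE, adjusted p = 3.04e-08, limma). MAGED1 passed the filter through the WT libraries alone and so had to fall, and its call is a description only. In RPKM the mean fell from 2.70 ± 0.392 to 0.195 ± 0.0676 (SD, n = 3 each), 13.9-fold lower. The normalized counts gave a ratio of 85.1. Their R320* mean of 2.58 is below 2.98, the floor of 3 reads in 1 R320* library, so that ratio is uncertain. Its paralogue MAGED2 (chrX:54807745-54816015), which controls salt transporters in the kidney, had 896 ± 31.7 normalized counts in WT and 906 ± 25.1 in R320* (SD, n = 3 each). That is a log2 difference of 0.02 with a 95% interval from -0.12 to 0.15, and MAGED2 was not called in RPKM either. MAGED4 and MAGED4B, with identical coding sequences, had no read in the normalized counts, and MAGED4B was listed at 0.0214 RPKM in WT replicate 2 only.

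SSX1 (chrX:48255392-48267444), the repressor most often fused to SS18 in synovial sarcoma, had 77.4, 119 and 93.0 normalized counts in WT and 1.96, 4.96 and 0 in R320*. The lowest WT library was far above the highest R320* library, with a log2 fold change of -5.20 ± 0.566 (SE, adjusted p = 8.63e-07, limma). SSX1 too passed the filter through the WT libraries alone and so had to fall. In RPKM it fell from 3.16 ± 1.15 to 0.0904 ± 0.114 (SD, n = 3 each). SSX4 (chrX:48383539-48393347) fell in RPKM, from 0.883, 1.33 and 1.21 in WT to 0.275, 0.167 and 0.106 in R320* (log2 fold change -2.16 ± 0.394 SE, adjusted p = 0.00657, limma). Its normalized counts were 0 to 1.99 in all 6 libraries, and 100% of its transcript's 50-base stretches also occur in SSX4B, so the row of SSX4 is uncertain. The 5 other SSX genes had no read in the normalized counts.

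**Figure D2:**
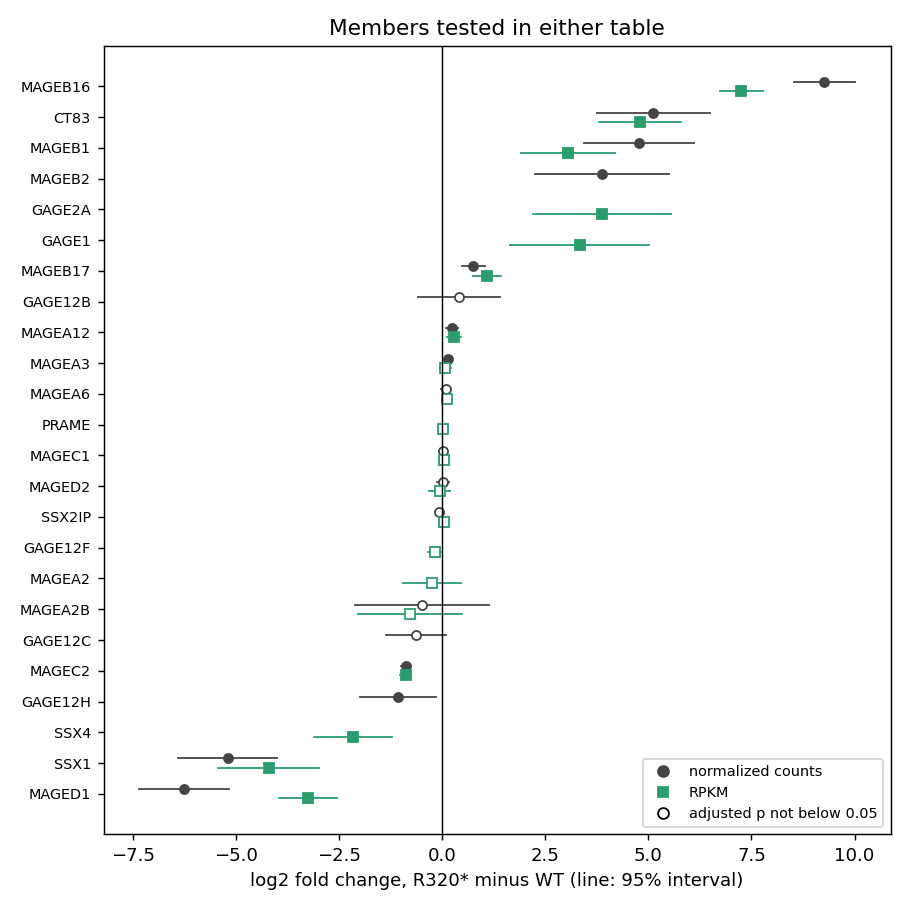
Log2 fold change, R320* minus WT, with its 95% interval for each member tested in either table, in normalized counts (circles) and RPKM (squares), filled where the adjusted p is below 0.05. The MAGEB genes and CT83 lie to the right, MAGED1 and SSX1 to the left, and MAGEC1, MAGED2 and PRAME at about 0.

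The MAGEC genes, neighbours on the long arm of chromosome X, diverged from each other. MAGEC2 (chrX:142202342-142205290), which activates the ubiquitin ligase TRIM28, had 1937, 1780 and 1958 normalized counts in WT and 1035, 1014 and 1017 in R320*. The genotypes did not overlap, and the log2 fold change was -0.89 ± 0.057 (SE, adjusted p = 1.44e-09, limma), as it was in RPKM, where the mean fell from 37.5 ± 1.72 to 20.3 ± 0.262 (SD, n = 3 each). MAGEC1 (chrX:141903894-141909374) had 2211 ± 69.4 and 2236 ± 9.93 normalized counts (SD, n = 3 each), a log2 difference of 0.02 with a 95% interval from -0.08 to 0.11. The RPKM ratio of MAGEC2 to MAGEC1 within a library was 1.69, 1.61 and 1.71 in WT and 0.911, 0.851 and 0.876 in R320*. Its log2 differed by -0.93 between genotypes, with an exact two-sided permutation p of 0.1, the smallest that 3 libraries against 3 allow.

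The MAGEA genes of the cluster near the end of the long arm were among the most abundant members and moved little. MAGEA12 (chrX:152733757-152737669) had 839, 819 and 910 normalized counts in WT and 1047, 999 and 983 in R320*, a log2 fold change of 0.24 ± 0.0675 (SE, adjusted p = 0.00674, limma), and was called in RPKM as well (0.29, adjusted p = 0.0264). MAGEA3 (chrX:152698794-152702347), a target of cancer vaccines, went from 1480 ± 54.8 to 1625 ± 54.2 normalized counts (SD, n = 3 each; log2 fold change 0.13 ± 0.0545 SE, adjusted p = 0.0473, limma). This call was lost when any library other than R320* replicate 3 was left out, with adjusted p-values of up to 0.173, and in RPKM MAGEA3 was not called. MAGEA6 (chrX:152766136-152769689), with 98.1% of coding bases identical to MAGEA3, had 1110 ± 35.8 and 1190 ± 27.9 normalized counts (SD, n = 3 each; adjusted p = 0.168, limma). MAGEA3 shares 56.5% and MAGEA6 53.9% of 50-base stretches with other genes, and their sum was 2591 ± 81.3 in WT and 2815 ± 58.4 in R320* (SD, n = 3 each).

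MAGEA2 (chrX:152749863-152753884) and MAGEA2B (chrX:152714586-152718607) have identical coding sequences, and both their split and their sum varied between libraries. They summed to 70.1, 43.9 and 45.5 normalized counts in WT and 10.8, 70.5 and 89.6 in R320*. In RPKM the sum was 14.5 to 18.1 in WT and 12.7 to 14.3 in R320*. The low count sum of R320* replicate 1 was therefore no matter of the split alone, and its cause was not tested. MAGEA2B had 37.7, 37.9 and 35.4 normalized counts in WT and 2.94, 61.5 and 80.0 in R320*, whereas its RPKM was 4.19, 5.57 and 6.73 in WT and 7.76, 1.83 and 2.06 in R320*. R320* replicate 1 was thus lowest in one table and highest in the other, and neither gene was called in either table. Without that library MAGEA2B was called higher in normalized counts (log2 fold change 0.91, adjusted p = 0.0176, limma) and lower in RPKM (-1.43, adjusted p = 0.00722, limma). Of the 7 remaining MAGEA genes, all were under the filters of both tables. MAGEA4, with 12.6, 5.98 and 8.09 normalized counts in WT and no read in R320*, and MAGEA1, with 12.6, 3.99 and 2.02 in WT and no read in R320*, were called lower in the fit with a filter of 1 normalized count in 1 library, and are named after their values were seen. In the RPKM fit that kept each gene with a value above 0, MAGEA4 was called lower (adjusted p = 0.00857, limma) and MAGEA1 was not (adjusted p = 0.123, limma). In the same fit of the normalized counts SPANXB1, a protein of the sperm nucleus, went from 4.18, 1.99 and 3.03 to no read and was also called lower (adjusted p = 0.0182, limma), while GAGE1 and GAGE2A were called higher. SPANXB1 is also named after its values were seen. Against a floor of 3 reads in 1 library, MAGEA4 was at least 2.98-fold lower, MAGEA1 2.08-fold and SPANXB1 1.03-fold. These 3 were picked by the values that gave their calls, so the calls are a description only.

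PRAME (chr22:22547701-22559265), a widely expressed tumour antigen that antagonises retinoic acid receptor signalling, had the highest RPKM of the members. It stood at 569, 589 and 591 RPKM in WT and 597, 598 and 587 in R320*, means of 583 ± 12.2 and 594 ± 6.32 (SD, n = 3 each). The genotypes overlapped, and the log2 difference was 0.03 with a 95% interval from -0.04 to 0.10 (adjusted p = 0.545, limma). With quantile normalization of the RPKM values the difference was 0.17 and was called (adjusted p = 0.00561). PRAME made up 49.8% of the families' summed RPKM in WT and 49.7% in R320*. In the normalized counts it had only 3.92 to 23.0 in the 6 libraries and was not tested. It held 0.0158 normalized counts per RPKM, beside a median of 60.4 over 11625 protein-coding genes, and 38 of the 1061 genes of at least 100 RPKM had a ratio below 1. None of its 50-base stretches occurs in another gene. Its span lies within the annotated immunoglobulin lambda locus, which has no row of its own in the normalized counts. The value of PRAME thus depends on the table, and the cause was not tested.

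The GAGE genes, a tandem array of near-identical copies, summed to 401 ± 19.4 RPKM in WT and 410.1 ± 14.8 in R320* (SD, n = 3 each), and the genotypes overlapped. GAGE12F alone (chrX:49560842-49568205) had 383, 422 and 396 RPKM in WT and 389, 323 and 350 in R320*, and was not called (adjusted p = 0.106, limma). GAGE2E was listed at 0 in the 3 WT libraries and in R320* replicate 1, and at 91.2 and 63.3 RPKM in R320* replicates 2 and 3, the libraries in which GAGE12F was lowest. All of its 50-base stretches, and 96.1% of those of GAGE12F, occur in other members, so values of single GAGE genes are uncertain. The sum is less open to the split between members, but it leaves out GAGE12G and GAGE12D, which share stretches with them and are no members. GAGE12G had 124, 527 and 47.5 normalized counts in WT and 326, 169 and 135 in R320*, and was not called. The GAGE members together had 127 ± 12.3 and 110 ± 13.5 (SD, n = 3 each).

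GAGE1 (chrX:49599013-49608538) was the GAGE gene with the most sequence of its own, with 12.9% of stretches shared. It had 2.09, 0 and 1.01 normalized counts in WT and 10.8, 11.9 and 9.53 in R320*, and in RPKM it rose from 0.126 ± 0.218 to 1.67 ± 0.682 (SD, n = 3 each; log2 fold change 3.33 ± 0.708 SE, adjusted p = 0.0121, limma). The genotypes did not overlap in either table, but without R320* replicate 2 the adjusted p was 0.0515. GAGE2A (chrX:49589496-49596824), with 85.2% of stretches shared, rose in RPKM from 0.150 ± 0.259 to 2.52 ± 0.441 (SD, n = 3 each; adjusted p = 0.00645, limma). GAGE12H (chrX:49579949-49587301) fell in normalized counts from 41.8, 59.8 and 39.4 to 32.4, 8.93 and 33.4 (log2 fold change -1.07, adjusted p = 0.0469, limma). Without R320* replicate 2 it was -0.48 with an adjusted p of 0.238. GAGE12C and GAGE12B were not called, and these 3 genes were listed at 0 RPKM in all libraries.

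**Figure D3:**
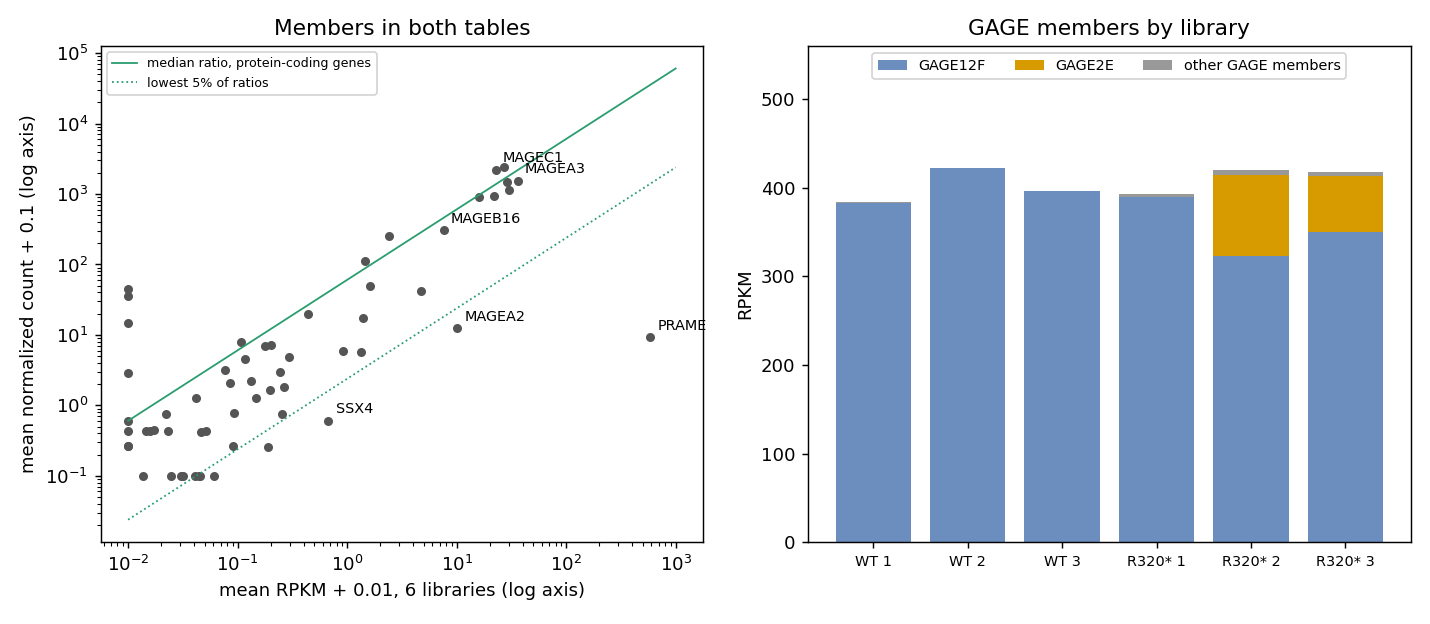
Left, mean normalized count plus 0.1 against mean RPKM plus 0.01 over 6 libraries (log axes) for members in both tables, with lines at the median ratio of 60.4 normalized counts per RPKM over protein-coding genes and at its lowest 5%. Right, RPKM of GAGE12F, GAGE2E and the other GAGE members stacked by library. PRAME lies far below the lines, and GAGE2E appears only in R320* replicates 2 and 3 while the GAGE sum stays between 384 and 422.

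Other families were silent or close to it in both genotypes. No read was found for the 22 PRAMEF genes, which are PRAME paralogues on chromosome 1, or for the 3 CTAG genes, which include the antigen NY-ESO-1. The 9 CT45 genes summed to 2.02 to 3.99 normalized counts in WT and 3.92 to 9.53 in R320*, the 6 PAGE genes to 2.02 to 8.97 and 1.91 to 8.82, and the 7 CT47 genes to at most 2.09. The 10 SPANX genes summed to 2.99 to 4.18 in WT and 0 to 1.91 in R320*. XAGE3 (chrX:52862528-52868083), a placental member, was at 1.04, 0.479 and 0 RPKM in WT and listed at 0 in R320*, so the genotypes overlapped. Of the genes taken in by prefix only, SSX2IP, a centrosomal protein that binds SSX2, had 2481 ± 126 and 2370 ± 78.1 normalized counts (SD, n = 3 each) and was not called, and no CTAGE gene was tested.

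**Figure D4:**
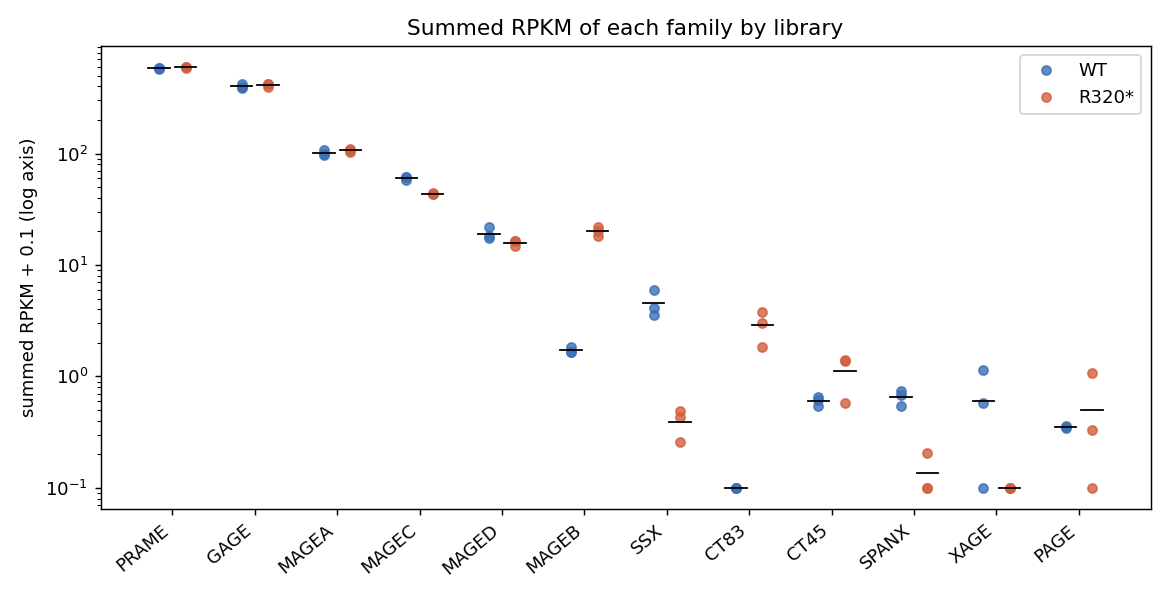
Summed RPKM plus 0.1 of each family (log axis) by library (points) with the mean of each genotype (bars). MAGEB and CT83 lie higher in R320*, SSX, MAGEC and MAGED lower, and PRAME, GAGE and MAGEA overlap between genotypes.

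Over the 112 family members the summed RPKM was 1171 ± 29.5 in WT and 1194 ± 14.1 in R320* (SD, n = 3 each), and the genotypes overlapped, since PRAME and GAGE dominate it. The order of the family sums was PRAME, GAGE, MAGEA, MAGEC, MAGED, SSX and MAGEB in WT, with MAGEC at 57.7 to 61.4 RPKM, MAGED at 19.0 ± 2.23 and SSX at 4.47 ± 1.29 (SD, n = 3 each). In R320* MAGEB, at 19.96, stood above MAGED, at 15.7 ± 0.893, and SSX was at 0.29 ± 0.119. In bulk RNA, fewer cells that transcribe a gene and less of its RNA per cell cannot be told apart.

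Genes beside the changed members were compared next. The nearest tested genes that are no members differed from place to place. CFAP47, 116 kb past MAGEB16, had no read in WT and 96.1, 73.4 and 131 normalized counts in R320*, and DMD, the dystrophin gene 2459 kb on the other side, went from 105 ± 11.7 to 540 ± 32.9 (SD, n = 3 each; log2 fold change 2.36, adjusted p = 2.14e-10, limma). PLS3, an actin-bundling protein 811 kb before CT83, went from 25.0 ± 19.0 to 1132 ± 58.3 (SD, n = 3 each; log2 fold change 5.85, adjusted p = 1.72e-08, limma), whereas KLHL13, 1435 kb after it, fell (-2.52, adjusted p = 0.00122, limma).

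SSX6P, an SSX pseudogene 135 kb before SSX1, fell with it, from 32.4, 25.9 and 17.2 to 0, 0.992 and 0 normalized counts. It belongs to the sequences with which SSX1 shares 8.81% of its stretches. SLC38A5, 191 kb on the other side, was not called (log2 difference 0.04, 95% interval from -0.07 to 0.15). Neither neighbour of MAGED1 (CLCN5 and FAM156B), of MAGEB1 and MAGEB2 (POLA1 and GK) or of MAGEB17 (GRPR and CTPS2) was called. Beside MAGEA12, CSAG1 fell from 531 ± 34.4 to 443 ± 19.4 (SD, n = 3 each; adjusted p = 0.0224, limma). Over all tested members there were 26 such neighbours, of which 5 were called higher, 4 lower and 17 not called. That share lies below the 53.7% of all genes called and the 49.4% of chromosome X genes that are no members. At 2-fold or more, 5 of the 26 were called, a share above the 11.4% of all genes. Whether neighbours move with the members was not tested. The neighbours include GAGE12G, a GAGE copy that is not among the members.

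**Figure D5:**
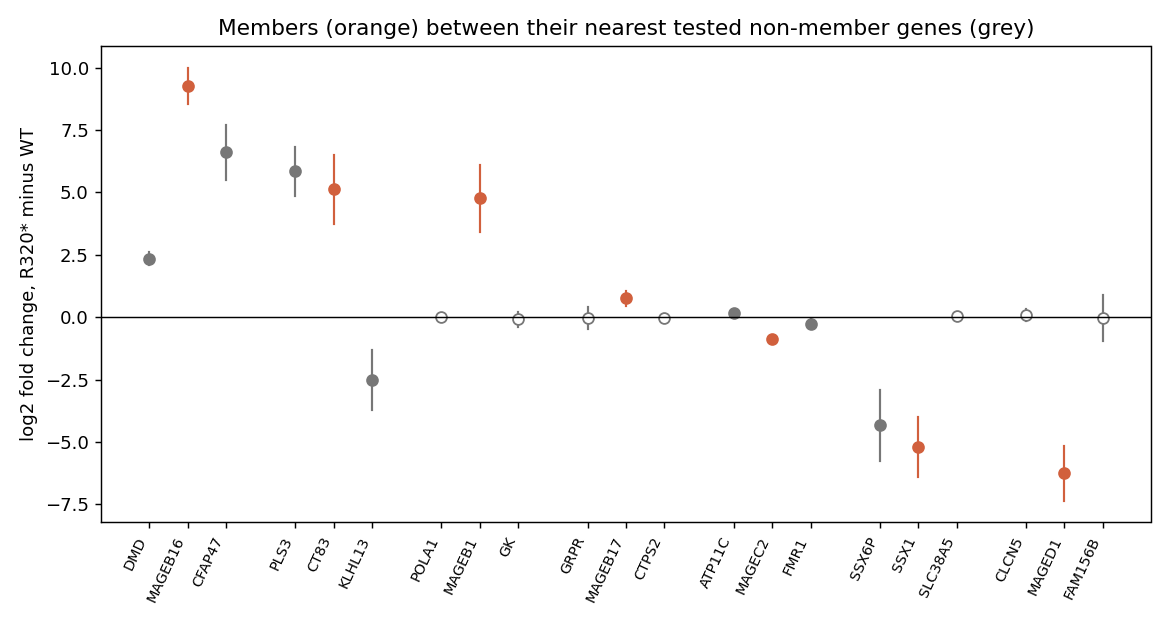
Log2 fold change in normalized counts, R320* minus WT, with its 95% interval for 7 members (orange) and the nearest tested gene on each side that is no member (grey), filled where the adjusted p is below 0.05. Both neighbours of MAGEB16 are higher, and those of MAGEB1, MAGEB17 and MAGED1 lie at about 0.

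Germline genes outside the families moved both ways. Of 39 tested of a list of 79, 8 rose and 14 fell in normalized counts, a share near the 53.7% of all genes. ATAD2, a chromatin reader, rose from 5767 to 8339 normalized counts and SYCP2, of the synaptonemal complex, fell from 1185 to 639. PASD1, a cancer-testis antigen on chromosome X that inhibits the circadian clock, fell from 228 to 40.5, and the mitotic kinase PBK fell from 1167 to 780. CT55, also on chromosome X and named after its values were seen, fell from 46.1 to 4.22. Of 15 germ cell markers 4 were tested, ODF2 was called lower and none higher, and 8 had no read. Among MAGE-domain genes outside the rule, MAGEF1 and MAGEH1 were tested and neither was called.

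Proteins known to bind these antigens were tested for 27 of 35 genes, and 8 rose and 9 fell, a share near the 53.7% of all genes called. SKP2, a ubiquitin ligase subunit, had the largest rise, from 2523 to 8505 normalized counts (log2 fold change 1.75, adjusted p = 2.1e-14, limma). RAB3IP fell from 748 to 293 and EZH2, the histone methyltransferase to which PRAME binds, from 5752 to 3918, while NR2F2 rose from 2088 to 3200. Among writers and readers of germline gene silencing, 42 of 46 were tested, 16 rose and 10 fell, and none was called at 2-fold or more, beside 53.7% of all genes called and 11.4% at 2-fold or more. An entry of that list, LSH, is another name of HELLS and was matched to a different gene. These counts may thus include a gene of another kind. DNMT3A, a de novo DNA methyltransferase, rose from 1236 to 1965 normalized counts, UHRF1 from 2020 to 2960, TET1 from 1515 to 2322 and the chromatin remodeller HELLS from 355 to 660.

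Genes of class I peptide presentation, the route by which these antigens reach the cell surface, were tested for 12 of 22, and 8 fell and 3 rose. PSME1, of the proteasome activator, fell from 2860 to 1200 normalized counts, the peptide trimming enzyme ERAP1 from 2566 to 1224, PSME2 from 2437 to 1516 and the chaperone CANX from 43575 to 33943. With 53.7% of all genes called, a count of 11 of 12 is given as a description of this list.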

How the data were processed

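RNA-seq of 6 K562 libraries was used, 3 per genotype. The submitters' processing notes name hg38, Salmon, HISAT2, featureCounts and DESeq2, without the table each made. The deposited signal values are normalized read counts that the authors had scaled by 1 factor per library. The deposited RPKM values, so named by the authors, summed to 764578 to 786389 per WT library and 721735 to 764073 per R320* library. The genotypes did not overlap in this sum, and the main RPKM values were not rescaled for it. A transcripts-per-million scale cannot be told apart from RPKM here, and a listed 0 may be a failed estimate.

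Genes that reached 10 normalized counts, or 0.5 RPKM, in 3 or more libraries were fitted as log2(normalized count + 1) or log2(RPKM + 0.1) with limma 3.58.1 (R 4.3.3; intensity trend) on the whole table, and p-values were adjusted by Benjamini-Hochberg over all genes. Fitted fold changes are on these scales and understate low genes. Bounds are against 3 reads in 1 library. The fits were tested on simulated data. Near copies were compared on coding sequences and 50-base stretches of GENCODE v29 transcripts; protein sequences were not used here. Positions and promoters are RefSeq's (GRCh38.p14).

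Members with a mean of at least 10 normalized counts or 0.5 RPKM in a genotype were named, as were the 4 genes of each list with the smallest adjusted p, the neighbours of changed members and up to 6 genes like MAGEB16. The members and lists were chosen with earlier results of these data known. Alternatives were pseudocounts, filters, scalings (TMM was computed by a formula of its own), no intensity trend, a replicate block, single libraries left out and other identity limits for copies. Python 3.11.15 was used for the rest.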

Additional observations from a re-analysis of the deposited data

How the results depend on the processing

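The count of members called in the normalized counts (11) was 9 to 12 with single libraries left out and 7 with a filter of at least 50 in at least 3 libraries, which tests fewer genes. In RPKM (11) it was 9 to 12 and, with a filter of at least 2, 7. The other alternatives kept these counts within 1.5 times. MAGEB16, MAGEB17, MAGEB1, MAGEB2, CT83, MAGEC2, MAGED1, SSX1 and MAGEA12 were called in each alternative of the normalized counts that tested them. Directions that reversed were those of members not called as reported. With single libraries left out, the log2 fold change in normalized counts ran from -1.27 to 0.91 for MAGEA2B (higher without R320* replicate 1), from -0.0072 to 0.038 for MAGEC1 (lower without WT replicate 3) and from -0.0028 to 0.044 for MAGED2 (lower without WT replicate 2, and -0.00044 without R320* replicate 2). In RPKM it ran from -0.48 to 0.12 for MAGEA2 (higher without R320* replicate 1) and from -0.12 to 0.050 for MAGED2 (higher without WT replicate 3). The cause was not tested. GAGE12C, without R320* replicate 1, was called lower (-0.91, adjusted p = 0.0462), as was GAGE12F in RPKM (-0.25, adjusted p = 0.0209). MAGEA12 in RPKM was called in 6 of 13 alternatives, GAGE12H in 5 of 14 and MAGEA3 in 7 of 15. At 90% and 99% identity of coding bases 77 and 48 members belonged to a set of near copies, against 66 at 95%.

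Libraries with the same number did not deviate together (correlations of 0.03, -0.0031 and -0.0033), so the numbers were not taken as pairs. With the number as a replicate block, 10 members were called in each table, MAGEA3 (adjusted p = 0.0509) being lost in the normalized counts and MAGEA12 (adjusted p = 0.0599) in RPKM, and 7854 of all genes were called in the normalized counts and 4865 in RPKM. Tests on recovered read counts were not run. Members of a few reads were tested only with the filters lowered, and for members with no read a difference was not detectable at this depth.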
